A study of Mus musculus with 5 samples.

Results

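The E2F transcription factor genes *E2f1* to *E2f8*, the replication licensing gene *Cdc6* and the cyclin-dependent kinase inhibitor gene *Cdkn2c* were examined for binding of the long non-coding RNA *Paupar* in N2A cells, a mouse neuroblastoma line. These 10 genes were taken by name from the 22380 protein-coding genes of the NCBIM37 (mm9) annotation, and each was given a regulatory domain. The core of a domain reached 5 kb before and 1 kb past the gene start, and it was extended on both sides to the next protein-coding gene's core, by at most 1 Mb. A peak was assigned to every gene whose domain held its midpoint. A peak between neighbouring cores, within the 1 Mb limit, therefore fell in the domains of both genes. By this rule 3 of the 10 genes had a peak, and each of the 3 had 1: *E2f2*, *E2f7* and *Cdkn2c*. They account for 3 of the 2849 peaks in the list.

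The peaks come from CHART-Seq, which recovers an RNA and the chromatin crosslinked to it with complementary biotinylated DNA oligonucleotides and sequences the associated DNA. All material was from N2A cells that had received no treatment: 2 pull-downs used the *Paupar* oligonucleotides, 2 used a control oligonucleotide with the sequence of bacterial *LacZ*, and 1 library was input DNA. The authors retained the peaks called both against *LacZ* and against input, in a single list of scored positions. The list gives no value per library, so no value below has a replicate error and the read depth behind each peak is unknown. N2A is a single cell line, and CHART-Seq does not separate direct from indirect contact of the RNA with DNA.

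E2F proteins bind DNA at the promoters of genes needed for entry into S phase. E2F1, E2F2 and E2F3 activate these genes and are held in check by the retinoblastoma protein, E2F4 and E2F5 mostly repress them together with the related pocket proteins, and E2F6 represses without pocket proteins. E2F7 and E2F8 are atypical repressors that bind DNA without a DP partner. CDC6 is a classical E2F target that helps to load the MCM helicase at replication origins, and the product of *Cdkn2c* inhibits CDK4 and CDK6, which keeps the retinoblastoma protein active.

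The peak at *E2f2* is the only one with a midpoint within 5 kb of the start of a member gene. Its whole sequence is shown for that reason. Only the central 240 bp are shown for the wider peaks of *E2f7* and *Cdkn2c*. Capitals mark every exact match, on either strand, to any of the 4 *Paupar* capture oligonucleotides that has the greatest length found in that peak and lies in the stretch shown. The *E2f7* peak holds another match of this length outside the stretch, from base 356 of its 363. All 3 sequences are given 5′ to 3′ on the plus strand of NCBIM37, at chr4:135727925-135728113, chr10:109893212-109893451 and chr4:109243010-109243249.
E2f2: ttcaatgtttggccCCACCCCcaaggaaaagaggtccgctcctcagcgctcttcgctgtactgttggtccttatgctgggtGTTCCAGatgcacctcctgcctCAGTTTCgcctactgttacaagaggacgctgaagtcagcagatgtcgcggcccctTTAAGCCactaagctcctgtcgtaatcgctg
E2f7: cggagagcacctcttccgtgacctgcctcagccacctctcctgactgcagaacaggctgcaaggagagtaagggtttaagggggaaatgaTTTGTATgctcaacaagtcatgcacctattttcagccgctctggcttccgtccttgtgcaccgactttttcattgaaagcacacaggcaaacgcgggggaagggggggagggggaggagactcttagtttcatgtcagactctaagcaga
Cdkn2c: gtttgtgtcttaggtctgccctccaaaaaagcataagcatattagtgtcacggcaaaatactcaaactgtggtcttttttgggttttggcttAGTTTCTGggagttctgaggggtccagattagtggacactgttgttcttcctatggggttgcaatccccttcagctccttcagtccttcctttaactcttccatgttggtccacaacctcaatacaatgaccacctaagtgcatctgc

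The longest match to a *Paupar* capture oligonucleotide was 7 nt in the *E2f2* peak, 7 nt in the *E2f7* peak and 8 nt in the *Cdkn2c* peak. The longest match to the *LacZ* control oligonucleotide was 7, 6 and 5 nt in these peaks, so at *E2f2* it was equally long. The *E2f2* peak held 4 matches of 7 nt, to 3 of the 4 *Paupar* oligonucleotides. These 3 are shown with the letters of the matches of 7 nt in capitals, and the third also with those of the match of 8 nt in the *Cdkn2c* peak. The longest match of the *E2f2* peak to the other one, PauparCHART2067, was 5 nt.
PauparCHART254, E2f2: GGCTTAAgtCCACCCCtggattcg
PauparCHART428, E2f2: gcCTGGAACtagatcaaggcagag
PauparCHART2041, E2f2: ctctcaGAAACTGcgatacaaaag
PauparCHART2041, Cdkn2c: ctctCAGAAACTgcgatacaaaag
None of the 3 peaks held a match of at least 10 nt. Such a match was present in 24.6% of all 2849 peaks and in 11% of the 173 peaks whose width was within 25% of that of the *E2f2* peak. For widths within 25% of those of the *E2f7* and *Cdkn2c* peaks the share was 21.3% and 22.4%. Most peaks thus lacked such a match, and its absence from 3 peaks says nothing particular about them. Over all peaks the median of the longest match was 9 nt.

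The count of 3 in 10 genes is 30.0% (95% Wilson interval 10.8 to 60.3, counting error only). Over all protein-coding genes, 3676 of 22380 had a peak in their domain, or 16.4%, which lies inside that interval. For *E2f1* to *E2f8* alone the count was 2 of 8. No member had a peak midpoint inside its gene body, where 5.04% of protein-coding genes had one.

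**Figure D1:**
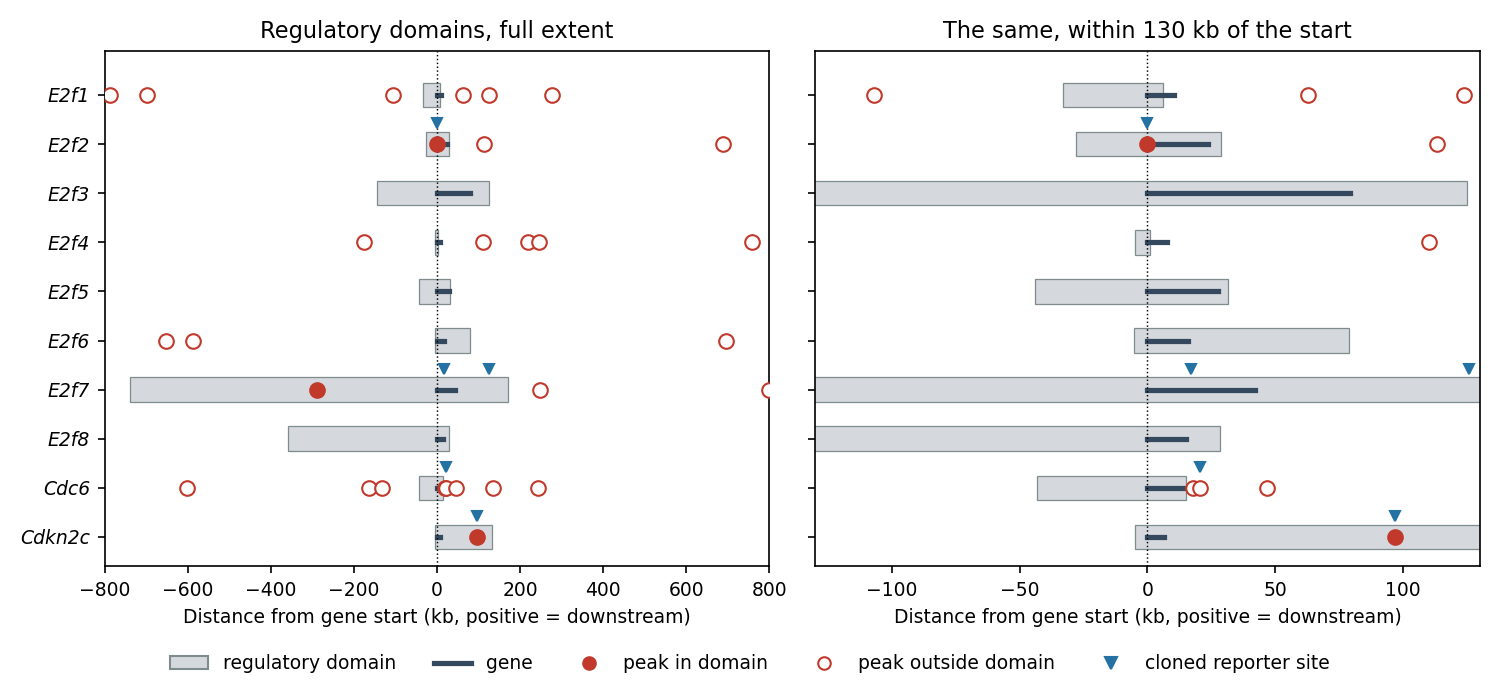
Regulatory domains (grey bars), genes (dark lines) and peaks around the 10 gene starts, plotted as distance from the gene start in kb with downstream positive, over the full extent of the domains (left) and close to the start (right). Filled circles are the 3 peaks inside a member's own domain, open circles are peaks outside it, and triangles are the sites that the study cloned into reporters; only *E2f2* has a filled circle at the dotted line.

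Among the activators, *E2f2* (ENSMUSG00000018983, chr4:135728309-135751972, plus strand) was the only one of the 10 genes with a peak midpoint within 5 kb of its own start. Over all protein-coding genes 2.36% had one within this distance on either side, and 1.71% had one in the core interval of the domain. The peak was 189 bp wide with a score of 19.58, rank 658 of 2849. Its midpoint lay 290 bp upstream of the gene start and its nearer edge 196 bp upstream, so it reached neither the start nor the first exon. It lay in the core of the *E2f2* domain, where the extension of neighbouring domains stops, and no other gene's domain held it. The domain of *E2f2* was 56.9 kb long, between those of *Id3* and *Asap3*.

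The *E2f2* peak combined a high score with a small width. Only 1.09% of the peaks were narrower, while 76.9% had a lower score. Of the 34 peaks no wider than it, it had the second highest score, and their median score was 9.04. Among the 199 peaks within 1 kb of a protein-coding gene start it ranked 58 by score, against a median of 14.61. It shared the second narrowest width among them, against a median width of 591 bp. The next peak outside the domain lay 113 kb downstream of the *E2f2* start, in the domain of *Zfp46*, with a score of 18.51.

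**Figure D2:**
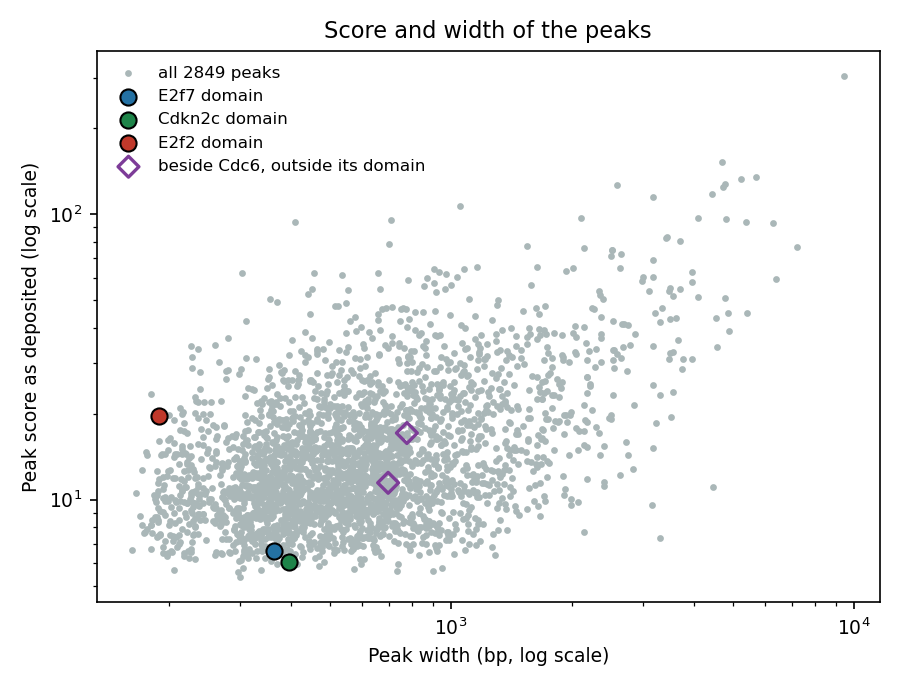
Deposited peak score against peak width in bp, both on log scales, for all 2849 peaks (grey), the peaks in the domains of *E2f2*, *E2f7* and *Cdkn2c* (filled circles) and the pair of peaks beside *Cdc6* that lie outside its domain (diamonds). The *E2f2* peak stands at the narrow edge with a score of 19.58, and the *E2f7* and *Cdkn2c* peaks lie near the lowest scores, at 6.63 and 6.04.

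The other activators had no peak in their domains. *E2f1* (ENSMUSG00000027490) had a domain of 38.8 kb between *Necab3* and *Pxmp4*. Its nearest peak was 62.7 kb downstream of the start, with a score of 7.68, in the domains of *Cbfa2t2* and *1700003F12Rik*. *E2f3* (ENSMUSG00000016477) had a longer domain, 271.0 kb between *Cdkal1* and *Mboat1*. Its nearest peak, with a score of 19.55 in the domain of *Gm5447*, was 986.0 kb upstream of the start. *E2f1* thus lay nearer to a peak than most genes, since only 17.7% of the 22363 genes with a peak on their chromosome had a nearer one, and *E2f3* farther than most, since 80.0% had a nearer one.

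The repressors that act with or without pocket proteins, *E2f4*, *E2f5* and *E2f6*, had no peak in their domains either. *E2f4* (ENSMUSG00000014859) is closely flanked by *4931428F04Rik* and *Exoc3l*, so its domain was 6.0 kb, the shortest of the 10 and shorter than the gene itself, which is 7.71 kb long. Its nearest peak was 110.0 kb downstream of the start, with a score of 8.58, in the domains of *Plekhg4* and *Lrrc36*. *E2f5* (ENSMUSG00000027552), with a domain of 75.4 kb between *Lrrcc1* and *1810022K09Rik*, was the most remote: its nearest peak, with a score of 7.42 in the domains of *Zbtb10* and *Zfp704*, was 5.31 Mb upstream, and 98.8% of genes had a nearer peak. *E2f6* (ENSMUSG00000057469) had a domain of 84.1 kb between *Greb1* and *Rock2*, and its nearest peak was 588.0 kb upstream with a score of 21.62, in the domains of *Trib2* and *Lpin1*.

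Of the atypical repressors, *E2f7* had a peak in its domain and *E2f8* did not. *E2f7* (ENSMUSG00000020185, chr10:110182495-110224440, plus strand) had the longest domain of the 10, 910.0 kb between *Nav3* and *Csrp2*, against a median of 89.4 kb over all protein-coding genes. Its peak, at chr10:109893151-109893513, was 363 bp wide with a score of 6.63, rank 2777 of 2849. It lay outside any protein-coding gene, 289.0 kb upstream of the *E2f7* start, and was also in the domain of *Nav3*, a neuron navigator gene. A peak with a higher score of 11.7 was nearer to the start, 247.0 kb downstream, but it lay 77.0 kb beyond the domain and belonged to *Csrp2* and *Zdhhc17*.

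*E2f8* (ENSMUSG00000046179) also had a long domain, 388.0 kb between *Csrp3* and *Nav2*, with no peak. Its nearest peak was 1.7 Mb downstream of the start, with a score of 8.68, in the domains of *Ptpn5* and *Mrgpra6*. The domains of both atypical repressors border genes of the same families, *Nav3* and *Csrp2* at *E2f7* and *Nav2* and *Csrp3* at *E2f8*.

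*Cdkn2c* (ENSMUSG00000028551, chr4:109333481-109339794, minus strand) had a domain of 136.0 kb between *4930522H14Rik* and *Faf1*. Its peak, at chr4:109242932-109243328, was 397 bp wide. The score of 6.04 ranked 2834 of 2849, and only 0.491% of peaks scored lower. The peak was 96.7 kb downstream of the *Cdkn2c* start, within the non-coding gene *Gm12811*. It was also in the domain of *4930522H14Rik*, whose start was closer, at 39.2 kb. The next peak outside the *Cdkn2c* domain was 1190.0 kb beyond its border, so no other peak lay within 500 kb of the gene.

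*Cdc6* (ENSMUSG00000017499, chr11:98769115-98785254, plus strand) had no peak in its domain, but peaks lay just outside it. The domain of 58.2 kb ended inside the gene, where the interval of *Rara*, the retinoic acid receptor alpha gene, begins. A peak at chr11:98786727-98787503, 777 bp wide with a score of 17.11 (rank 849), began 1473 bp past the 3′ end of *Cdc6*. Its midpoint was 18.0 kb from the *Cdc6* start and 2.98 kb beyond the domain. A second peak, at chr11:98789159-98789856, 698 bp wide with a score of 11.45 (rank 1657), followed at 20.4 kb. Both lay in the core of the *Rara* domain and were assigned to *Rara* alone. The first was 2017 bp upstream of its start and the second 376 bp downstream of it, in an intron. The scores of these peaks outside the domain were higher than those of the *E2f7* and *Cdkn2c* peaks inside theirs. *Cdc6* also had the most peaks within 500 kb of its start, 7, against a median of 1 over all protein-coding genes. *E2f3*, *E2f5*, *E2f6* and *E2f8* had none within this distance, 4 of 10, and neither did 34.8% of all protein-coding genes.

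Above 30 kb, the share of genes with a peak was higher in each longer class of domains. Of genes with a domain of 30 to 100 kb, 9.2% had a peak (95% Wilson interval 8.58 to 9.85). This class held 5 members, *E2f1*, *E2f2*, *E2f5*, *E2f6* and *Cdc6*, of which *E2f2* had a peak. From 100 to 300 kb the share was 21.3% (20.3 to 22.3), and of *E2f3* and *Cdkn2c* the second had a peak. From 300 to 1000 kb it was 34.9% (33.2 to 36.6), and of *E2f7* and *E2f8* the first had one. *E2f4* was in the class under 10 kb, with a share of 4.18% (3.02 to 5.75), and the class from 10 to 30 kb, which held no member, had a share of 3.66% (3.06 to 4.37). Genes that share a peak are not independent of each other, which these intervals do not take into account.

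**Figure D3:**
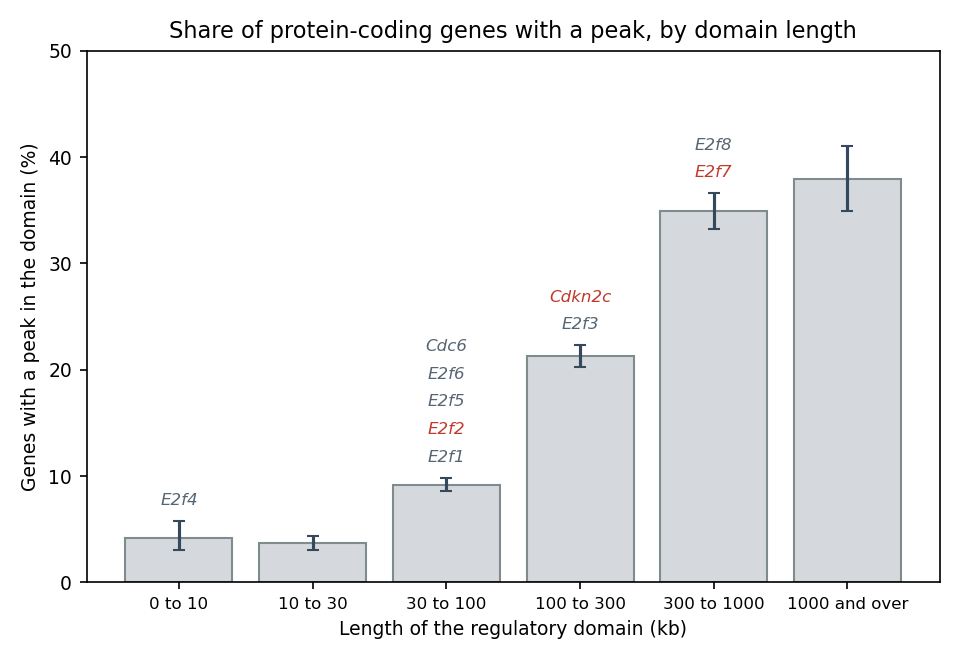
Share of protein-coding genes with a peak in the regulatory domain, in percent, by domain length in kb; bars start at 0 and whiskers are 95% Wilson intervals. Member genes are written above the class they belong to, in red where they had a peak; the share is 4.18% and 3.66% in the shortest classes and 37.9% at 1000 kb and over.

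The chromosomes of the members differed in peak density. *E2f2* and *Cdkn2c* lie on chromosome 4, which held 115 peaks, or 0.757 per Mb of unambiguous sequence, against 1.11 per Mb over the genome. *E2f7*, the other member with a peak, lies on chromosome 10, with 1.33 per Mb. *E2f5* lies on chromosome 3, with 0.799 per Mb. The density was 1.01 per Mb on chromosome 7 (*E2f8*) and 1.1 on chromosome 12 (*E2f6*). It was 1.37 on chromosome 13 (*E2f3*), 1.5 on chromosome 2 (*E2f1*) and 1.57 on chromosome 11 (*Cdc6*). *E2f4*, which had no peak in its domain, lies on chromosome 8, which had 291 peaks, or 2.33 per Mb, the highest density of the 9 chromosomes that carry a member.

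Base composition also separated the *E2f2* peak from that of *Cdkn2c*. The GC content was 55.0% in the *E2f2* peak, higher than in 87.8% of all peaks, and 53.4% in the *E2f7* peak, higher than in 81.9%. It was 45.6% in the *Cdkn2c* peak, below the median of 48.1% over all peaks. Over the 199 peaks near gene starts the median GC content was 53.1%, and the *E2f2* peak ranked 77 from the highest. The observed over expected ratio of CpG dinucleotides was 0.641 at *E2f2*, where 9 CpG lay in the 189 bp, 0.389 at *E2f7* and 0.146 at *Cdkn2c*. The median over all peaks was 0.179 and that over the 199 peaks near gene starts 0.433. The peaks beside *Cdc6* were rich in GC, with 57.9% and 60.3%, but their CpG ratios were lower than that of *E2f2*, at 0.277 and 0.324.

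E2F proteins recognise short GC-rich words after a run of T. The words TTTCCCGC, TTTGGCGC, TTTCGCGC and TTTGCCGC were searched on both strands, where overlapping matches were counted separately. None of the 3 member peaks and neither peak beside *Cdc6* held a word, and none did after widening each by 100 bp on both sides. Over all peaks 1.16% held one, so most peaks lacked the words. In windows from 250 bp before to 50 bp after the gene start, *E2f1*, *E2f2*, *E2f7* and *Cdc6* held a word, 4 of 10, against 2.72% of all protein-coding genes. These genes are known E2F targets, and a match of letters does not show that a factor binds.

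The words are shown in capitals with 8 letters on each side, 5′ to 3′ on the strand of the gene, because their places can be set against the peak. The first base lay 4 and 17 bp downstream of the gene start at *E2f1*, 40 bp downstream at *Cdc6*, 81 bp upstream at *E2f2* and 198 bp upstream at *E2f7*.
E2f1 first: gctctttcGCGGCAAAaaggattt
E2f1 second: aaaaaggaTTTGGCGCgtaaaagt
Cdc6: agagcggcTTTGGCGCgagttgac
E2f2: gcatatagTTTGGCGCtaaaaaaa
E2f7: gcgtccccGCGGGAAAcgctcccg
The word at *E2f2* was the only one within 1000 bp of its start, and it lay 115 bp downstream of the peak, between the peak and the gene start. At *E2f2* the peak and the E2F letters are thus separate stretches of the same promoter. At the other 3 genes no peak lay near the start.

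**Figure D4:**
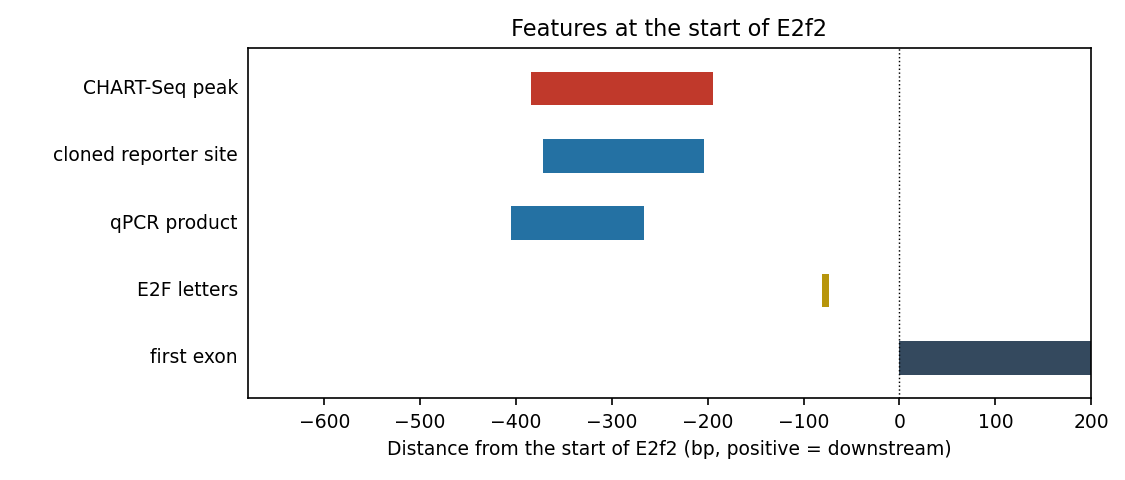
Features at the start of *E2f2*, plotted to scale as distance from the gene start in bp with downstream positive: the CHART-Seq peak, the cloned reporter site, the product of the qPCR primers, the E2F word and the beginning of the first exon, which extends past the right edge. The peak ends 196 bp before the start, and the E2F word lies between them.

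The study cloned sites at 4 of these genes into reporters, and the primers place each on the genome by exact match of their last 20 nt, with 1 product each. The *E2f2* product, chr4:135727937-135728104, lay inside the peak and covered 88.9% of it, and the product of the *E2f2* qPCR primers, chr4:135727904-135728042, covered 62.4%. Neither contains the E2F word. The *Cdkn2c* product, chr4:109242948-109243144, lay inside the peak and covered 49.6% of its length. The reverse primer of this product matched 2 places in the genome, but the forward primer matched 1. The *Cdc6* product, chr11:98789591-98789890, shared 266 of its 300 bp with the second peak, within *Rara* and outside the *Cdc6* domain.

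Both *E2f7* products lay apart from every peak of the list. One, chr10:110199452-110199697, was 246 bp long and lay in an intron of *E2f7*, 17.1 kb downstream of the start. The other, chr10:110308066-110308349, was 284 bp long and lay 126.0 kb downstream of the start, beyond the gene. Their nearest peak, with a score of 11.7, was 229.0 kb and 120.0 kb away. The forward primer of the second product matched 128 places in the genome, but the reverse primer matched 1. The peak that the domain rule assigns to *E2f7*, upstream of the gene, is neither of the cloned sites. The study describes both cloned sites as *Paupar* binding sites, a term it reserves for peaks called against *LacZ* and input alike, which is also how the list was made. Why the products placed by these primers overlap no peak of the list was not tested.

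The wider cell cycle network was taken from 8 lists of 86 genes in all, without the 10 genes above, and every gene was found in the annotation. Of the 86 genes, 11 had a peak in their domain, or 12.8% (95% Wilson interval 7.29 to 21.5), against the 16.4% of all protein-coding genes. Their domains had a median length of 96.1 kb, against 89.4 kb over all genes. Replication origin licensing and firing had 4 of 22, the E2F6 repressor complex 2 of 6, the CDK inhibitors 2 of 6, and the MuvB core with its partners 1 of 8. The G1 and S phase cyclins and kinases had 1 of 10, DNA synthesis and the S phase checkpoint 1 of 17, the mitotic regulators 0 of 12, and the pocket proteins with their DP partners 0 of 5. The interval of every list included the share over all genes, and with 5 to 22 genes a list these intervals are wide.

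**Figure D5:**
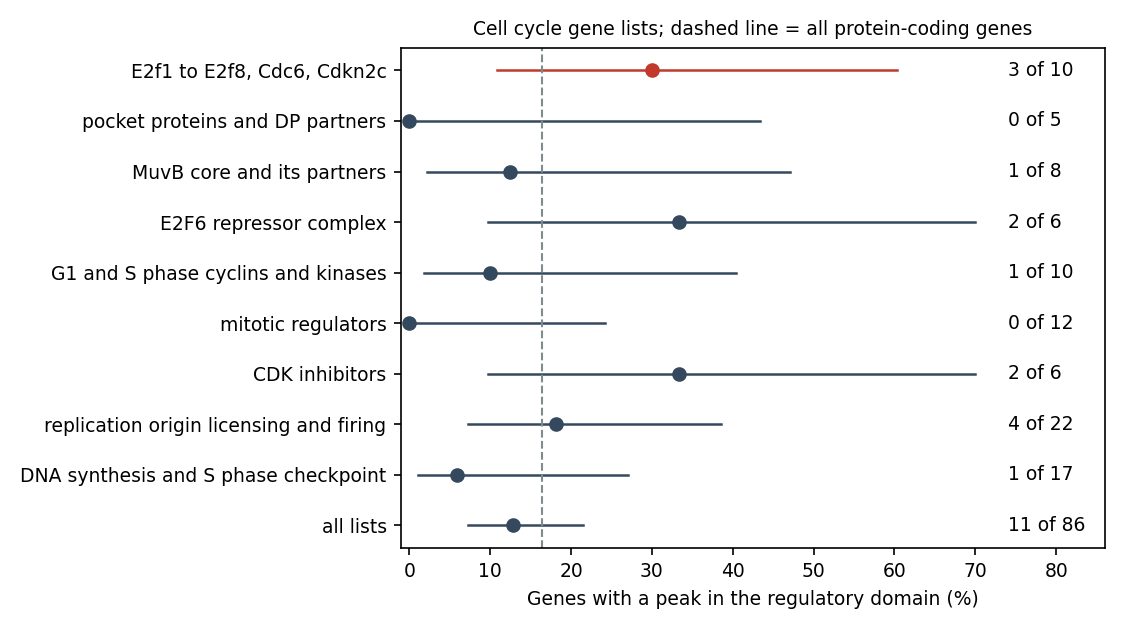
Share of genes with a peak in the regulatory domain, in percent, for the 10 genes (red) and each cell cycle list (dark), with 95% Wilson intervals and the counts at the right; the dashed line is the share over all protein-coding genes, 16.4%. Every interval crosses the dashed line.

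Within these lists *Orc4*, a subunit of the origin recognition complex that recruits CDC6, was the only gene with a peak within 5 kb of its start. The peak, at chr2:48805303-48805776 with a score of 9.88, lay 257 bp downstream of the start, in an exon, and was shared with *Mbd5*. Each of the 14 peaks in these lists lay in the domains of 2 genes, so none belonged to the named gene alone. The rule gives this outcome for any peak between 2 cores within the 1 Mb limit, so it says nothing particular about these genes. A second *Orc4* peak, with a score of 12.04, was 31.8 kb upstream. Of the MCM helicase subunits, *Mcm2* had 2 peaks, 68.3 and 72.9 kb upstream with scores of 7.21 and 21.63, and *Mcm5* had 1, 7.68 kb upstream with a score of 7.21. *Dbf4*, the activating subunit of the CDC7 kinase, had 1 at 168.0 kb upstream with a score of 10.07. Counting peaks on either side of the start and regardless of domains, *E2f2* and *Orc4* were the 2 of all 96 genes with a peak midpoint within 5 kb, or 2.08%, against 2.36% of all protein-coding genes.

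Outside replication, *Lin9*, a MuvB subunit, had a peak with a score of 13.49 in its own intron, 5.37 kb downstream of the start. *Cdkn2d*, a relative of *Cdkn2c*, had a peak 5.6 kb upstream with a score of 7.53, in an intron of *Ap1m2*, and *Cdkn1c*, the gene of another CDK inhibitor, had a peak 76.4 kb downstream with a score of 17.43, in an intron of *Kcnq1*. The *Cdkn1c* and *Cdkn2d* peaks had matches to a capture oligonucleotide of 11 and 10 nt, so 2 of the 14 peaks in these lists had a match of 10 nt or more, against 24.6% of all peaks. Of the E2F6 partners, *Max* had 2 peaks, the higher with a score of 16.05 at 97.8 kb upstream, and *Mga* had 1 with a score of 10.21 at 97.9 kb upstream, in an exon of *Tyro3*. *Ccnd1*, the cyclin D1 gene, had a peak 139.0 kb upstream with a score of 12.16, and *Rfc1*, a subunit of the PCNA clamp loader, had one 86.6 kb downstream with a score of 12.07, in an intron of *Wdr19*. None of the 14 peaks held an E2F word, against 1.16% of all peaks, so the count says nothing particular about these genes.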

How the data were processed

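CHART-Seq was carried out by the authors on 2 *Paupar* pull-downs, 2 *LacZ* pull-downs and 1 input library of N2A cells. The authors aligned the reads to mm9 with bowtie, retained only uniquely placed reads, which leaves repeated sequence poorly covered, and called peaks with MACS2. Their processing notes give no versions. They further filtered the calls by q value. They deposited 1 peak list, in which the score is not defined, so it was used here only to rank and filter peaks. The lowest score in the list was 5.34, not far below the 6.04 of the *Cdkn2c* peak and the 6.63 of the *E2f7* peak. How replicates were joined is not given in the sources used here.

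The 10 genes and the gene lists were chosen with earlier results of these data known, and no test was run. The genes named were all 10 members with their peaks, nearest peaks and bordering genes, and from each list the genes with a peak within 5 kb of the start or else the 3 genes with the highest-scoring nearest peaks. *Mcm2*, *Mcm5* and *Dbf4* were named after their values were seen. Distances run from the annotated gene start to the peak midpoint, ranks go from the highest score, and percentiles are shares of all peaks or genes with a lower value. Sequences were read from the NCBIM37 genome, the assembly of mm9, and oligonucleotides and primers from the study's supplement. The alternatives tried were other domain rules, a score minimum of 10, merging of peaks within 10 kb, shorter E2F words, widened or central windows and other match lengths. Domain assignment and letter searches were tested on simulated data. Values were computed with pysam 0.24.0, scipy 1.17.1 and numpy 2.4.6 in Python 3.11.15 and drawn with matplotlib 3.10.9. Knockdown, reporter and immunoprecipitation values were not analysed here.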

Additional observations from a re-analysis of the deposited data

How the results depend on the processing

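*E2f2* had a peak under all 7 other rules for peaks and domains, whereas *E2f7* and *Cdkn2c* did not. With the interval from 5 kb upstream to 1 kb downstream alone, 1 of the 10 genes (*E2f2*) had a peak, with 1 peak between them. So did 1 of the 86 cell cycle genes and 383 of all protein-coding genes, or 1.71%. With peaks of a score of at least 10, 1 gene and 1 peak again remained, *E2f2*, and *E2f7* and *Cdkn2c* were lost, while 12.6% of all genes and 9 of the 86 cell cycle genes had one. With each peak given only to the nearest gene start, *E2f2* and *E2f7* had one, as did 7 cell cycle genes and 2226 of all genes, or 9.95%. With domains extended by at most 100 kb, *E2f7* was lost, and 11.8% of all genes had a peak. All 3 genes had a peak when any overlap counted (16.6% of all genes), when peaks within 10 kb were merged (16.4%) and when domains were built on every transcript start (15.5%). Counting any overlap could not lose a gene, and no peak of the 3 genes had another within 10 kb to merge with. With 7 letters in place of 8 the E2F words were in 4.42% of all peaks, and still in none of the 3 member peaks. A match to a capture oligonucleotide of at least 9 nt was in 58.5% of all peaks and of at least 11 nt in 7.37%, and in none of the 3 at either length. In windows of 200 bp centred on each peak, which at *E2f2* took in a few flanking bases, the GC content was above that of 78.8% of peaks at *E2f2*, 73.9% at *E2f7* and 23.2% at *Cdkn2c*.

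Leaving out replicates was not possible, since the list holds no value per library. No paired analysis was possible because the result comes from no test. Depth was unknown, so the absence of a peak at the other 7 genes does not show that *Paupar* was absent there. Shares and intervals cover counting error only.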
